A study of Mus musculus with 16 samples.

Results

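The comparison described here sets quadriceps muscle of HSALR mice given the antisense oligo ASO 190401 (4 arrays) against quadriceps muscle of HSALR mice given saline (4 arrays), which are 8 of the 16 arrays of the study. The arrays were chosen by their labels alone. All 25697 probes of the bead array were read, and the 12364 that 4 or more of the 16 arrays detected (p under 0.05) were analysed, which gave 8725 named genes by the brightest probe of each. Adult mice on the FVB/n background were injected subcutaneously, biweekly for 4 weeks, with saline or with an oligo, and 100 ng of total RNA per muscle sample was labelled. Both groups compared carry the HSALR transgene, a human skeletal actin gene with a long CUG repeat in its transcript that is expressed in muscle fibres, so the model holds the repeat RNA in muscle and not in the other tissues that myotonic dystrophy affects. The other groups, 4 arrays each, were saline-injected wild-type (WT) mice and HSALR mice that received ASO 445236, and they are used for values set side by side. The sequence, target and chemistry of ASO 190401 are not given in the labels.

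In myotonic dystrophy type 1 a transcript with expanded CUG repeats stays in the nucleus and binds muscleblind (MBNL) proteins, which are then missing from their targets, so that many muscle transcripts keep a fetal splicing pattern. One of these is the transcript of Clcn1, which encodes the chloride channel of muscle fibres, and its loss slows relaxation, a sign called myotonia. Antisense oligos that recruit RNase H, a nuclease that cuts RNA paired with DNA, can act in the nucleus and so reach such retained transcripts.

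Within the groups compared, the arrays correlated at 0.9865 to 0.9921 over genes, and between them at 0.9777 to 0.9831. From 11105 to 11454 probes lay above background on each of the 8 arrays, and precision is limited by having 4 arrays in a group. All saline arrays lay on one slide and all ASO 190401 arrays on the other, so slide and treatment cannot be told apart in this comparison. WT shared a slide with ASO 190401, and ASO 445236 shared one with saline, which gives each gene a value within a slide to set beside the main one. Markers of muscle fibres were bright throughout, with 11 of 12 measured and a mean log2 intensity of 14.66 to 14.70 in saline and 14.54 to 14.67 under ASO 190401. By the limma test explained with the comparison, 1 of the 11 was higher and 3 lower, Myh1, Des and the myoglobin gene Mb (-0.27 ± 0.069, a call lost without saline replicate 2 at an adjusted p = 0.0501). That test called 8.08% of all genes higher and 7.69% lower. The labels name separate samples but no animals, so the spread behind each p-value is that between arrays and may be technical.

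One imbalance between the groups is not in the labels. Xist, the RNA that coats the inactive X chromosome in females, had a normalised log2 intensity of 7.09, 4.72, 5.10 and 5.02 on saline arrays 1 to 4 and of 6.96, 7.24, 6.65 and 7.54 on ASO 190401 arrays 1 to 4. Kdm5d, a Y-linked histone demethylase gene, read 4.58, 6.38, 6.82 and 7.15 on the saline arrays and 4.65, 4.83, 4.70 and 4.77 on the ASO 190401 arrays. Xist was therefore above background on 4 of 4 ASO 190401 arrays and on saline replicate 1 alone, and Kdm5d on the other 3 saline arrays alone. The labels give no sex. Among the side-by-side groups Xist was above background on 3 of 4 WT arrays and on 1 of 4 ASO 445236 arrays. Both genes were chosen after their values were seen, as were, in the paragraphs on gene groups, Col15a1, Gbp3, Hspb3, Hspb8, Hspg2, Ifi27l2a, Ifit2, Lamc1, Nid1, Parp14, Fos, Egr1, Junb, Gstm2, Mup6, Cish and Hba-a1.

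**Figure D1:**
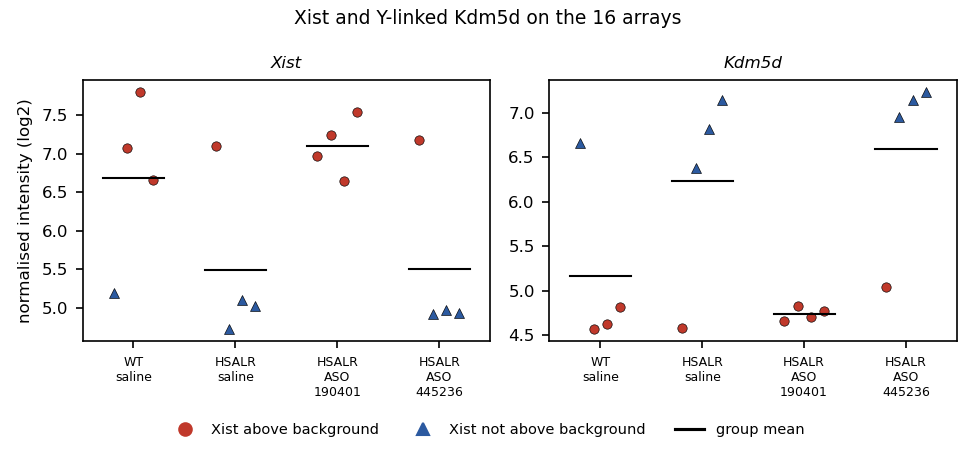
Normalised log2 intensity of Xist (left) and of the Y-linked gene Kdm5d (right) on each of the 16 arrays, by group (4 arrays each). Circles mark arrays with Xist above background, triangles the others, and bars the group means; the 4 ASO 190401 arrays and saline replicate 1 are Xist-high and Kdm5d-low, while saline replicates 2 to 4 are the reverse.

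The main results are therefore given from a fit of the 4 group means and again from the same fit with the Xist class of the array (above background or not) as a further term, an alternative chosen after these values were seen. The term rests on the arrays of all 4 groups, since saline holds 1 Xist-positive array and ASO 190401 holds 4, and it raised the median standard error over genes from 0.148 to 0.175. Each ± gives the standard error of a log2 difference, a gene is called at an adjusted p under 0.05 by limma over all 8725 genes, and n is 4 arrays per group. For genes with several probes the brightest was used: of 353 called genes with further probes tested, 143 had another probe called the same way and 6 one called the opposite way.

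Under ASO 190401, 705 genes were higher and 671 lower than in saline (8.08% and 7.69% of genes), 34 and 89 of them at least 2-fold (0.39% and 1.02%). Of the 12364 probes 885 were higher and 835 lower (7.16% and 6.75%). The differences were small for most of the 1376 calls (15.8% of genes), with 848 under 1.5-fold and 8 over 4-fold. With the Xist class as a term 374 genes were higher and 416 lower (4.29% and 4.77%, together 9.05%), and 644 of the 1376 calls remained in the same direction. None of the 1376 changed sign, 732 no longer passed, and 146 genes passed only with the term. Of the larger changes, 23 of the 34 genes at least 2-fold higher and 78 of the 89 at least 2-fold lower were called with the term too. The split also depends on the scaling. Scaling the arrays to one median in place of quantile normalisation shifted the median difference of all genes from 0.017 to 0.18 and gave 1943 genes higher and 296 lower, beside raw 75th percentiles of 102.8 to 120.1 in saline and 134.4 to 187.4 under ASO 190401.

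Ramp3, whose product partners with receptors of the calcitonin family, had the largest called fall, with log2 intensities of 9.65, 9.93, 9.42 and 9.67 in saline and 5.76, 5.78, 6.91 and 4.93 under ASO 190401. Every treated array lay below every saline array, as in 10.5% of all genes, and ASO 190401 replicate 4 was not above background. The difference was -3.82 ± 0.28 (adjusted p = 9.66e-08), and -3.82 ± 0.35 with the Xist class term. Idi2, an isomerase of isoprenoid synthesis found in muscle, read 8.73, 8.82, 8.76 and 9.12 in saline and 6.45, 6.09, 7.12 and 5.65 under the oligo. Again the groups were apart, with replicate 3 the highest of the treated arrays, as it was for Ramp3. The difference was -2.53 ± 0.23 (adjusted p = 9.36e-07), and -2.44 ± 0.28 with the term. Neither gene was above background on any WT array, so no difference from WT is given for them. Under ASO 445236, within the saline slide, their differences from the same saline arrays were -4.91 ± 0.28 and -3.40 ± 0.23, with 1 and 2 of its 4 arrays above background.

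Ngfr encodes the p75 neurotrophin receptor, which denervated and injured tissue expresses. It read 8.56, 9.0, 8.76 and 8.88 in saline and 7.28, 6.99, 6.97 and 5.77 under ASO 190401, with replicate 4 the lowest and no overlap. It fell by 2.05 ± 0.25 (adjusted p = 2.14e-05; -1.95 ± 0.30 with the term), yet stood above WT on the same slide by 1.04 ± 0.25 (adjusted p = 0.0107), WT being above background on 3 of 4 arrays. Irf5, a transcription factor of innate immune signalling, read 8.18, 8.18, 8.59 and 8.38 in saline and 6.53, 6.15, 6.23 and 6.43 under ASO 190401. The 4 treated arrays lay close together and below all saline arrays, with a difference of -2.00 ± 0.15 (adjusted p = 9.66e-08; -1.80 ± 0.16 with the term). Its level did not differ past the threshold from WT (0.28 ± 0.15, adjusted p = 0.26). Atp1b4, a relative of the sodium pump beta subunits, fell by 1.98 ± 0.14, was -1.91 ± 0.17 from saline with the term, and remained above WT at 0.70 ± 0.14. Tnfrsf12a, the receptor of the cytokine TWEAK, fell by 1.91 ± 0.24, and the cell cycle gene Ccne2 fell by 1.79 ± 0.18, and with the term the differences were -1.90 ± 0.29 and -1.77 ± 0.22. The set of the 12 largest falls with no overlap between groups also held Olfr985, Sprr2k, Scube2 and Map3k7cl, at -2.36 ± 0.14, -2.36 ± 0.18, -1.83 ± 0.19 and -1.80 ± 0.19, all called with the term, and Mettl21c, which is described with the Xist class. Sprr2k was above background on 1 of 4 treated arrays and Olfr985 on 3.

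**Figure D2:**
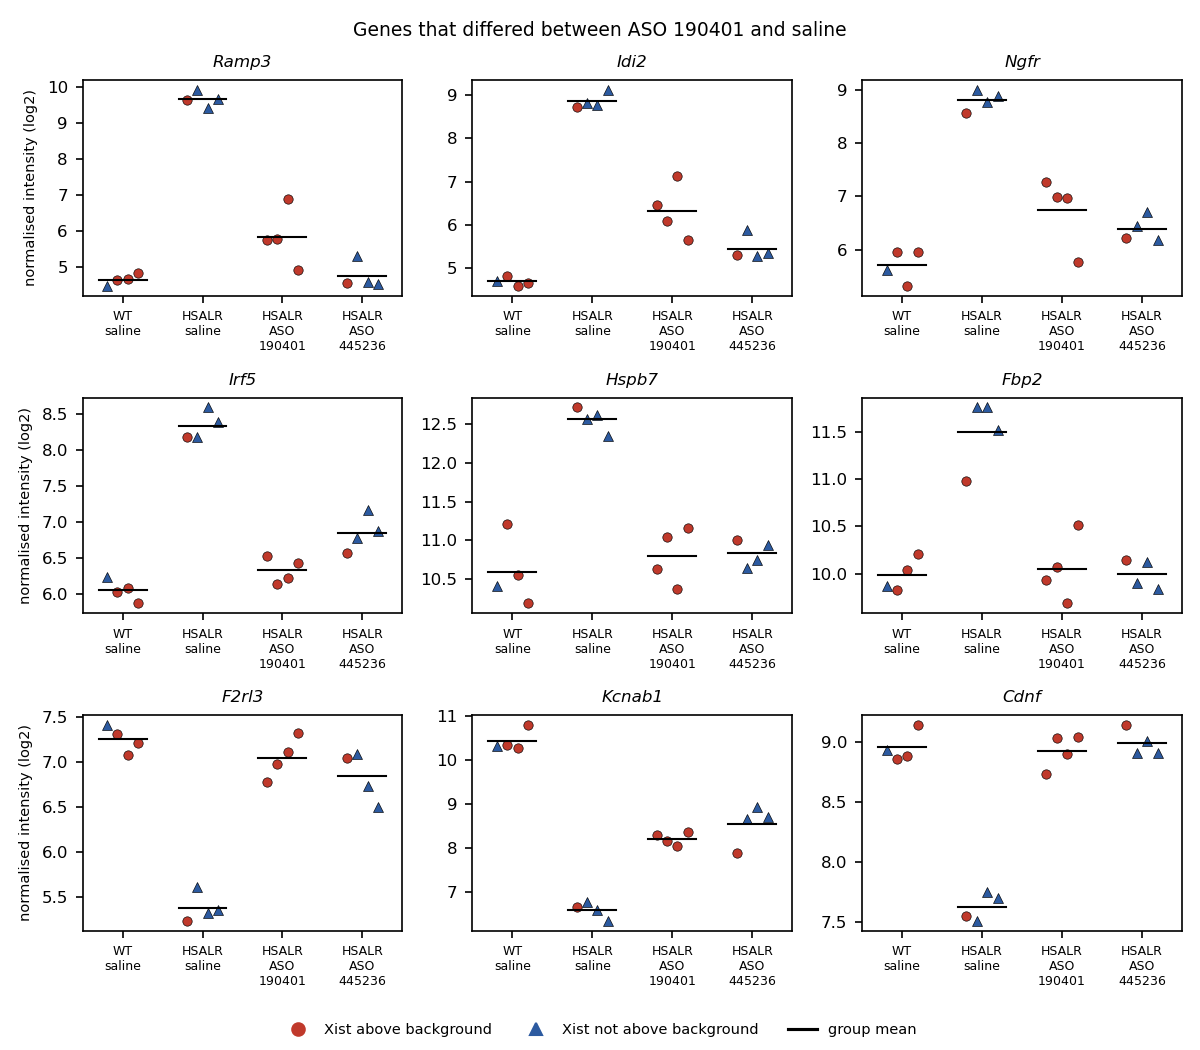
Normalised log2 intensity of 9 genes called between ASO 190401 and saline, by group (4 arrays each), with group means as bars and the Xist class as the symbol. Ramp3, Idi2, Ngfr, Irf5, Hspb7 and Fbp2 are low and F2rl3, Kcnab1 and Cdnf high on all 4 ASO 190401 arrays. Saline replicate 1, the one Xist-positive saline array, lies on the saline side of every panel. It is the saline array nearest to the treated ones for Idi2, Ngfr, Irf5 and Fbp2, and another saline array is nearest in the other panels.

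The largest called rise, that of Mup2, is described with the Xist class. F2rl3, which encodes a thrombin receptor of the protease-activated family, read 5.23, 5.61, 5.31 and 5.35 in saline, where only 1 array was above background, and 6.78, 6.98, 7.11 and 7.33 under ASO 190401. All treated arrays were higher than the saline arrays, as in 11.8% of all genes, and the gene rose by 1.67 ± 0.16 (adjusted p = 1.42e-06; 1.71 ± 0.19 with the term), and they did not differ past the threshold from WT (-0.21 ± 0.16, adjusted p = 0.455). Kcnab1, a potassium channel subunit, read 6.68, 6.77, 6.60 and 6.35 in saline and 8.30, 8.16, 8.05 and 8.37 under ASO 190401, with tight groups that were well apart. It rose by 1.62 ± 0.18 (adjusted p = 7.14e-06; 1.77 ± 0.21 with the term) and its other probe by 1.23, but it stayed below WT at -2.22 ± 0.18 (adjusted p = 9.8e-08). Cdnf, a secreted neurotrophic factor of the endoplasmic reticulum, read 7.55, 7.51, 7.75 and 7.70 in saline and 8.73, 9.03, 8.89 and 9.03 under the oligo. It rose by 1.29 ± 0.10 (adjusted p = 1.17e-07; 1.26 ± 0.12 with the term) and lay -0.031 ± 0.10 from WT (adjusted p = 0.888). The cytochrome P450 gene Cyp4f39, above background on 2 saline arrays, rose by 1.49 ± 0.26 (1.15 ± 0.29 with the term). The chemokine gene Ccl8, above background on 0 of 4 saline arrays and on 4 of 4 treated ones, was at least 2.20-fold higher (adjusted p = 0.00108; adjusted p = 0.026 with the term). Insyn2b, a relative of an inhibitory synapse protein, read 7.17, 5.79, 6.01 and 6.30 in saline and 8.52, 8.30, 7.65 and 8.20 under ASO 190401. It rose by 1.85 ± 0.28 (adjusted p = 0.000172), and by 1.26 ± 0.24 with the term, saline replicate 1 being the highest of the saline arrays. It was also above WT, at 1.90 ± 0.28.

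Collagens I, III and V build the fibrils of connective tissue, collagen VI links them to the fibre surface, and collagen IV, laminins and nidogens make up the basement membrane around each fibre. Of 13 measured genes for collagen VI and the basement membrane 8 were lower and 0 higher, with a median of -0.52, where 7.69% of all genes were lower and the median of all was 0.017. With the Xist class term 3 were lower, where 4.77% of all genes were, and the median was -0.44. By median scaling 4 were lower, where 296 of all 8725 genes were. Of 13 fibrillar collagens and their partners 4 were lower and 0 higher, at a median of -0.46, and 3 with the term. In bulk muscle, fewer cells of a type and less RNA per cell cannot be told apart.

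Col3a1, a fibril collagen of loose connective tissue, read 8.40, 8.55, 8.11 and 8.61 in saline and 7.11, 7.20, 6.76 and 7.17 under ASO 190401. The treated arrays were all lower, and the gene fell by 1.36 ± 0.26 (adjusted p = 0.00139; -1.38 ± 0.31, adjusted p = 0.00888 with the term). Col1a1, the main chain of collagen I, read 9.64, 9.23, 8.95 and 9.56 in saline and 7.79, 8.06, 8.16 and 8.33 under ASO 190401. Its groups did not overlap, but the difference of -1.26 ± 0.29 (adjusted p = 0.00607) became -0.88 ± 0.32 with the term and no longer passed (adjusted p = 0.0918). Col5a1, which helps start fibrils, fell by 0.80 ± 0.14 (-0.85 ± 0.17, adjusted p = 0.00423 with the term). Sparc, a collagen-binding protein gene, fell by 0.88 ± 0.20, a call lost with the term (adjusted p = 0.0722).

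Col6a1 read 10.99, 10.76, 10.62 and 10.63 in saline and 9.80, 10.02, 9.98 and 9.96 under ASO 190401, and Col6a2, its partner chain, 7.87, 7.80, 7.94 and 7.67 in saline and 6.53, 6.51, 6.78 and 6.89 under ASO 190401. Neither gene had overlapping groups. The differences were -0.81 ± 0.12 (adjusted p = 0.000155) and -1.14 ± 0.20 (adjusted p = 0.000694), and with the term -0.91 ± 0.14 and -1.25 ± 0.24, both still called. Nid1, the basement membrane linker nidogen, fell by 0.51 ± 0.11 (-0.58 ± 0.14 with the term, adjusted p = 0.0112). The calls of Col4a1 (-0.85 ± 0.20), Col4a2 (-0.91 ± 0.26), Col15a1 (-0.59 ± 0.18), Lamc1 (-0.62 ± 0.14) and Hspg2 (-0.52 ± 0.13), a basement membrane proteoglycan gene, did not pass with the term, at adjusted p = 0.128, 0.278, 0.0572, 0.0796 and 0.0932. Col4a2 lost its call on removal of any of 4 single arrays (adjusted p up to 0.0747) and Col15a1 of any of 5 (up to 0.109).

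These genes were also lower than in WT, a comparison made within 1 slide with 4 and 3 Xist-positive arrays. There 10 of the 13 collagen VI and basement membrane genes and 7 of the 13 fibrillar genes were lower and 0 higher (5.28% of all genes were lower), with medians of -0.82 and -0.76. Col3a1 stood -1.67 ± 0.26 from WT, Col1a1 -1.42 ± 0.29, Col6a1 -1.22 ± 0.12 and Col6a2 -1.57 ± 0.20, at adjusted p of 0.000309, 0.00383, 1.86e-06 and 4.2e-05. Under ASO 445236 the same genes differed from saline by 0.034 ± 0.26, -0.42 ± 0.29, -0.064 ± 0.12 and -0.57 ± 0.20, none past the threshold, and the list medians were -0.44 for collagen VI and the basement membrane and 0.034 for the fibrillar genes. That comparison uses the same saline arrays. Fibroblast markers lay beside the falls at a median of -0.18 with 0 of 11 called. With the term their median was -0.52 and 2 were lower, where 4.77% of all genes were. The mean log2 level of these markers ran from 7.88 to 8.28 in saline and from 7.94 to 8.04 under ASO 190401. Endothelial markers had a median of -0.39 with 0 of 12 called, their mean level running from 8.50 to 8.90 in saline and from 8.07 to 8.67 under ASO 190401. Against WT, 7 of the 11 fibroblast markers were lower and 0 higher under ASO 190401, at a median of -0.79. Of the 12 endothelial markers 4 were lower than in WT and 0 higher, at a median of -0.60. HSALR saline, on the other slide, differed from WT by medians of -0.70 for fibroblast and -0.20 for endothelial markers. The part of either marker list in the collagen and basement membrane values was not tested.

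**Figure D3:**
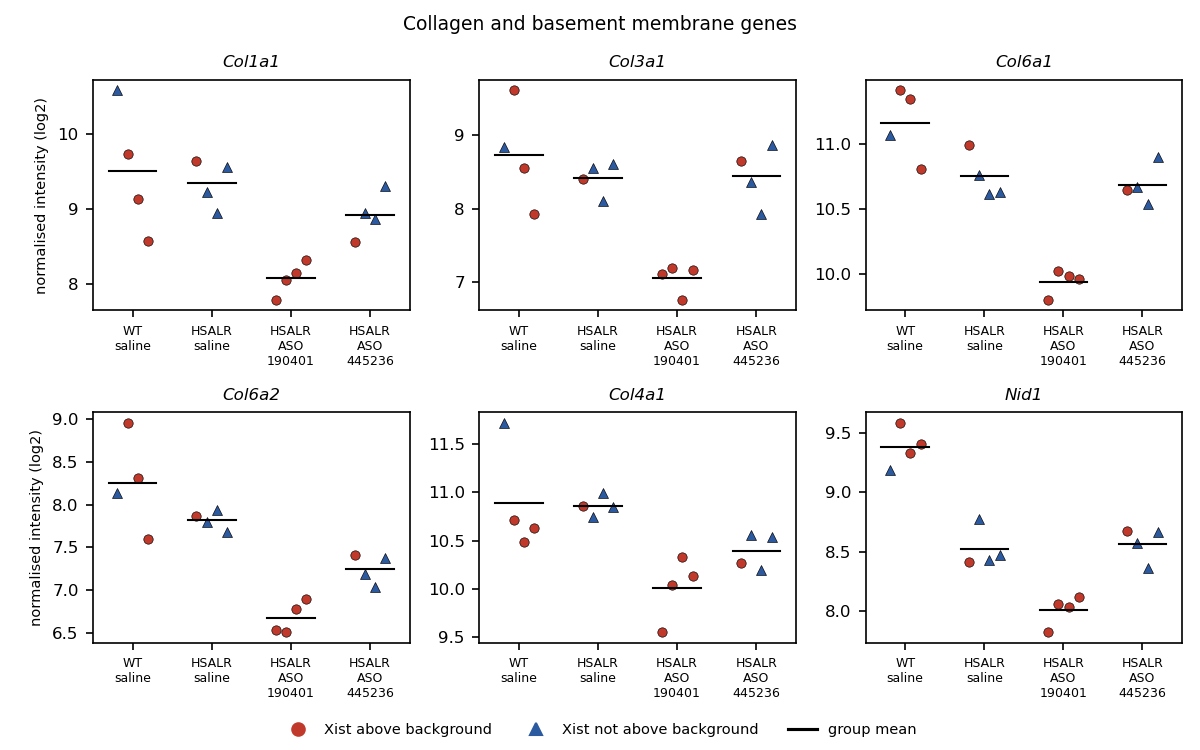
Normalised log2 intensity of 6 collagen and basement membrane genes by group (4 arrays each), with group means as bars and the Xist class as the symbol. The 4 ASO 190401 arrays lie below all saline arrays for the 6 genes and below the WT means, while the ASO 445236 arrays of Col3a1 and Col6a1 lie at the level of saline.

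Enzymes that process and crosslink collagen did not move as one: 2 of 15 were higher and 3 lower, where 8.08% and 7.69% of all genes were. With median scaling 3 were higher and 0 lower, where 1943 and 296 of all 8725 genes were. Loxl1, a crosslinking oxidase gene, fell by 0.61 ± 0.15 and Pcolce, which helps trim procollagen, fell by 0.56 ± 0.18, both also with the term (-0.77 ± 0.18 and -0.72 ± 0.21), while Plod2, a lysyl hydroxylase gene above background on 1 saline array, was higher by 0.90 ± 0.20 and P4ha2, a prolyl hydroxylase gene, by 0.47 ± 0.14, both lost with the term (adjusted p = 0.0799 and 0.236). Among the small proteoglycans 1 of 8 was higher, Ogn at 0.56 ± 0.14, a call lost with the term (adjusted p = 0.0828), with which 0 were higher and 1 lower. Matrix proteases gave 1 of 13 higher, the gelatinase gene Mmp9 at 0.53 ± 0.15 on 2 saline arrays above background, and 1 lower, the gelatinase gene Mmp2 at -0.45 ± 0.13; neither call passed with the term. In TGF-beta signalling, which drives collagen production, 3 of 16 were higher and 2 lower, and 6 and 2 with median scaling. The ligand gene Tgfb3 fell by 0.77 ± 0.12 (-0.81 ± 0.14 with the term) and the latency protein gene Ltbp1 fell by 0.86 ± 0.26, a call lost with it, its dimmer probe differing by -0.13, and the signal transducer gene Smad3 was higher by 0.67 ± 0.20 (0.86 ± 0.23 with the term) and the receptor gene Tgfbr1 by 0.37 ± 0.10, a call lost with the term (adjusted p = 0.152). Pcolce lost its call on removal of any of 6 single arrays (adjusted p up to 0.11), P4ha2 of any of 5 (up to 0.103), Mmp9 of any of 3 (up to 0.067), Mmp2 of any of 3 (up to 0.0767), Ltbp1 of any of 5 (up to 0.0956), Smad3 of any of 4 (up to 0.0864) and Tgfbr1 of any of 3 (up to 0.0754).

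Of 16 interferon response genes 7 were higher and 0 lower, at a median of 0.50, where 8.08% of all genes were higher. With the Xist class term 6 of the 16 were higher, where 4.29% of all genes were, and the median was 0.49. By median scaling 8 were higher, where 1943 of all 8725 genes were. Type I interferon induces such genes through a promoter element with repeated GAAA units. The promoters of the called members that hold this pattern, a pair of GAAA units in the same direction with any 2 bases between them, on either strand are shown, each from 250 bases before to 50 after the start of the gene (RefSeq, GRCm38.p6), 5′ to 3′ on the strand of the gene, with the matches in capitals and overlapping matches joined.
Ifit3, chr19:34583279-34583578, plus strand: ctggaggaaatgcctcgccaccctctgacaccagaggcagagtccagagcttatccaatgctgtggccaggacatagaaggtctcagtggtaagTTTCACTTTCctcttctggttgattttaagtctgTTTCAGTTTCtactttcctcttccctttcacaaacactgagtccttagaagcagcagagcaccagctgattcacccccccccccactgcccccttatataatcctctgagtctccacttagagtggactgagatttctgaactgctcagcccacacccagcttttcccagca
Isg15, chr4:156200769-156201068, minus strand: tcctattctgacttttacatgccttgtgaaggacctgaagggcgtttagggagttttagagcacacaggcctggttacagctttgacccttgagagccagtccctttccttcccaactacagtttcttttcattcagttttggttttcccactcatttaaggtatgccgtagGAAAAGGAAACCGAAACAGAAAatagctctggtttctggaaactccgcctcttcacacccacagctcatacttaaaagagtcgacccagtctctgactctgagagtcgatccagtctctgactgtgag
Gbp3, chr3:142559794-142560093, plus strand: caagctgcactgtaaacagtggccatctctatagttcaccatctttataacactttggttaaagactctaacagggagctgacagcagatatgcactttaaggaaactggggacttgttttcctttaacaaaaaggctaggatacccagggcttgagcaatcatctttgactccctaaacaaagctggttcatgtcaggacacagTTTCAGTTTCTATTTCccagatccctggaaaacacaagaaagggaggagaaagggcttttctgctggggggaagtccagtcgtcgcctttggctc
In Ifit3 and Gbp3 the matches are on the opposite strand and so read as a pair of TTTC units, and in Isg15 they are on the strand of the gene. The pattern was in the promoters of 10 of the 12 measured members with an entry, against 3.66% of the tested genes with an entry. By call, it was in 3 of 5 members that were higher and in 7 of 7 that were not, and Oasl2 and Ifit2 had no match in this window. A gene was counted if any of its promoters matched, and of the 2 promoters of Gbp3 only the 1 shown did.

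Oasl2, an antiviral protein of the oligoadenylate synthetase family, read 5.82, 5.61, 5.38 and 5.58 in saline and 6.80, 7.03, 7.63 and 7.53 under ASO 190401. All treated arrays were higher, and the gene rose by 1.65 ± 0.20 (adjusted p = 1.96e-05; 1.47 ± 0.23 with the term). Usp18, which removes Isg15 from proteins and limits interferon signalling, read 5.83, 5.66, 5.39 and 5.44 in saline and 6.71, 7.03, 7.32 and 7.09 under ASO 190401. The rise was 1.46 ± 0.16 (adjusted p = 5.98e-06; 1.41 ± 0.19 with the term), and its dimmer probe differed by 0.46 without a call. Ifit3, an RNA-binding antiviral protein gene, read 6.27, 6.40, 6.11 and 6.36 in saline and 7.21, 7.36, 7.97 and 7.88 under ASO 190401. It rose by 1.32 ± 0.19 (adjusted p = 0.000115; 1.13 ± 0.22 with the term), with treated replicates 3 and 4 the highest. The call of Isg15 was lost without saline replicate 2 (adjusted p = 0.0507).

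Isg15, the ubiquitin-like modifier, read 5.32, 4.71, 5.71 and 4.87 in saline, with 1 array above background, and 5.69, 6.42, 6.20 and 5.86 under ASO 190401. Saline replicate 3 just overlapped treated replicate 1, and the difference of 0.89 ± 0.23 passed (adjusted p = 0.0126; 1.0 ± 0.28 with the term). Ifit2 was higher by 0.70 ± 0.16 and the GTPase gene Gbp3 by 0.88 ± 0.19; with the term Ifit2 stayed called and Gbp3 did not (adjusted p = 0.0368 and 0.0776). Ifi27l2a was higher by 0.74 ± 0.24, a call lost with the term (0.29 ± 0.23, adjusted p = 0.497), and Parp14 was called only with it. Against WT, where 5.09% of all genes were higher, Oasl2 and Ifit3 were higher (0.82 ± 0.20 and 0.66 ± 0.19) and Ifi27l2a lower (-0.86 ± 0.24), while the list median was 0.0048. Under ASO 445236 against saline the median was 0.52. Ifi27l2a lost its call on removal of any of 6 single arrays (adjusted p up to 0.148).

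**Figure D4:**
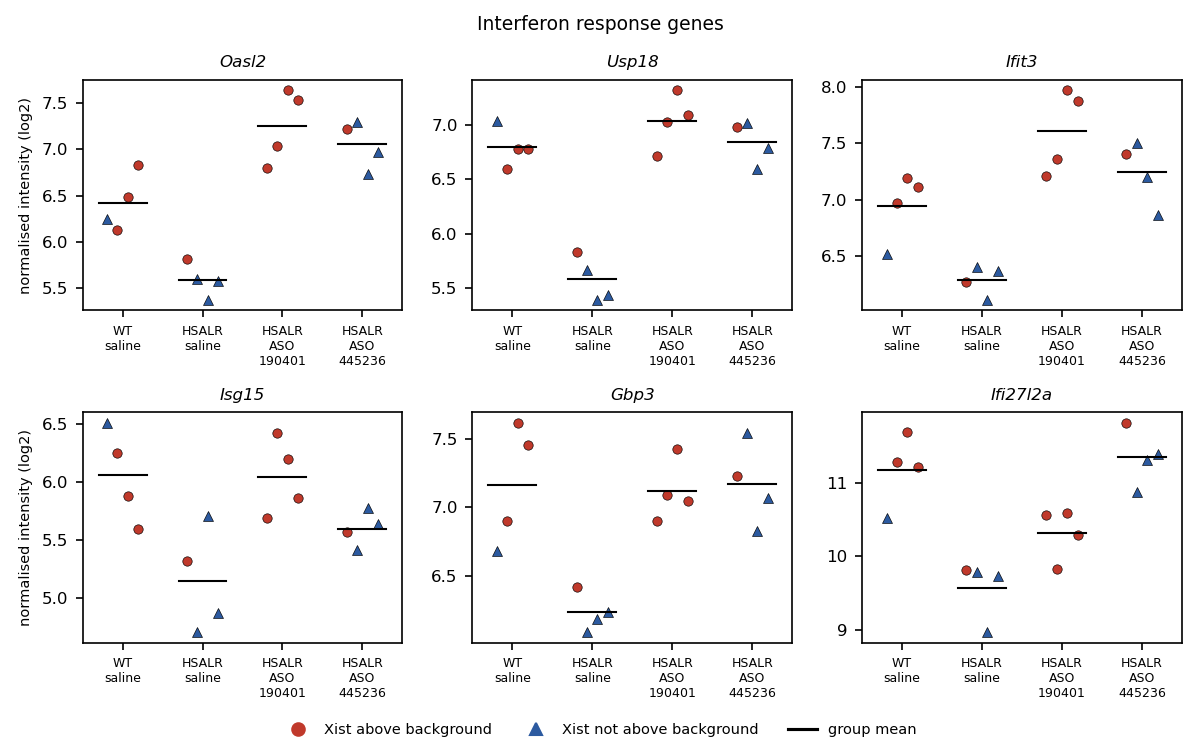
Normalised log2 intensity of 6 interferon response genes by group (4 arrays each), with group means as bars and the Xist class as the symbol. HSALR saline has the lowest of the 4 group means for each gene, and the 4 ASO 190401 arrays lie above all saline arrays for each gene but Isg15.

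Of 7 interferon regulatory factor genes Irf5 was lower, as given above, and Irf9, a transcription factor of the interferon response, was higher by 0.56 ± 0.16 (adjusted p = 0.0254), a call lost with the term (adjusted p = 0.0692). No antigen presentation gene was called by limma (0 of 11), at a median of 0.16. Myeloid markers stood beside the interferon genes at a median of 0.32 with 2 of 13 higher, where 8.08% of all genes were. The 2 markers were Ms4a7, a macrophage membrane protein gene, at 1.41 ± 0.30 and Aif1, a macrophage calcium-binding protein gene, at 0.55 ± 0.17. The dimmer probe of Aif1 differed by 0.11. With the term 0 were higher and 2 lower, where 4.29% and 4.77% of all genes were, and the median was -0.11. The dimmer probe of Ms4a7 differed by 0.24. Levels of the 13 markers, averaged per array, ran from 6.41 to 7.13 in saline and from 6.94 to 7.38 under ASO 190401, and their part in the interferon values was not tested. Irf9 lost its call on removal of any of 4 single arrays (adjusted p up to 0.0797) and Aif1 of any of 6 (up to 0.114).

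Among RNA-binding proteins of splicing, 3 of the 6 MBNL, CELF and RBFOX genes were higher and 0 lower, and 2 were higher with the term. All genes gave 8.08% higher and 7.69% lower, and 4.29% higher with the term. Celf2, a splicing regulator that acts against muscleblind on shared targets, read 10.48, 10.46, 10.29 and 10.43 in saline and 11.19, 11.31, 11.30 and 11.31 under ASO 190401. Both groups were tight and apart, at 0.86 ± 0.066 (adjusted p = 1.17e-07; 0.82 ± 0.081 with the term), and the other probe of the gene rose by 0.71. Rbfox1, a splicing factor of muscle and neurons, was higher by 0.39 ± 0.093 (0.51 ± 0.10 with the term). Mbnl2 read 12.97, 12.82, 12.88 and 12.90 in saline and 12.97, 13.29, 13.08 and 13.41 under ASO 190401, with replicate 1 of the oligo group at the level of saline, and its rise of 0.30 ± 0.086 (adjusted p = 0.0243) was lost with the term (adjusted p = 0.191). Mbnl1, the main muscleblind gene of muscle, did not pass (0.18 ± 0.093, adjusted p = 0.201). Of 22 genes for SR proteins and hnRNPs 2 were higher, Hnrnph1 at 0.68 ± 0.14 and Hnrnpm at 0.37 ± 0.086, both also with the term, and Hnrnpa1 fell by 0.62 ± 0.20, a call lost with it and opposed by the 0.53 of its dimmer probe, which did not pass. The shares of the 22 were 9.09% higher and 4.55% lower, near those of all genes. With median scaling 7 of the 22 were higher, where 1943 of all 8725 genes were. Mbnl2 lost its call on removal of any of 5 single arrays (adjusted p up to 0.0968) and Hnrnpa1 of any of 7 (up to 0.118).

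Clcn1 read 6.66, 7.03, 6.79 and 7.09 in saline and 7.46, 7.82, 7.83 and 7.56 under ASO 190401. The treated arrays were all higher, and the difference was 0.78 ± 0.15 (adjusted p = 0.00212, and 0.85 ± 0.19 with the term), while the other probe of the gene differed by 0.24 without a call. With the term and without saline replicate 1, the Xist-positive saline array, Clcn1 stood at 0.70 and was not called (adjusted p = 0.116). Among 18 transcripts mis-spliced in myotonic dystrophy 4 were higher and 2 lower in total level (1 and 1 with the term), which says nothing of their splicing. The shares of all genes were 8.08% and 7.69% (4.29% and 4.77% with the term). Ldb3, a Z-disc protein gene, was higher by 0.58 ± 0.15 and Mapt, the tau gene, fell by 0.40 ± 0.11, and both calls were lost with the term, the dimmer probe of Ldb3 standing at 0.35 and those of Mapt at 0.18 and -0.30 without a call. Pdlim3, another Z-disc protein gene, fell by 0.35 ± 0.062 (-0.31 ± 0.076 with the term). Mouse Acta1, skeletal actin, read 14.78, 14.83, 15.03 and 14.78 in saline and 14.79, 14.80, 14.69 and 14.76 under ASO 190401, which overlapped (-0.093 ± 0.059, adjusted p = 0.32), and whether its probe also reads the human transgene is not known. Rnaseh1, the nuclease that cuts RNA paired with DNA, was at 0.05 ± 0.19 (adjusted p = 0.896). Of 13 genes of RNase H and nuclear RNA decay 1 was higher, the exosome subunit gene Exosc4 at 0.42 ± 0.077 (0.42 ± 0.096 with the term). The call of Ldb3 was lost without ASO 190401 replicate 4 (adjusted p = 0.0506). Mapt lost its call on removal of any of 4 single arrays (adjusted p up to 0.0671).

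Of 23 genes of excitation and calcium handling, Clcn1 and Kcnab1 among them, 3 were higher and 2 lower, 13% and 8.7% beside the 8.08% and 7.69% of all genes. By median scaling 6 were higher and 1 lower, where 1943 and 296 of all 8725 genes were. Cacng1, a subunit of the muscle calcium channel, fell by 0.72 ± 0.12 (-0.59 ± 0.14 with the term) and Atp1b1, a sodium pump subunit gene, fell by 0.44 ± 0.14, a call lost with it. Of 6 receptor genes of the neurotrophin and calcitonin families only Ngfr and Ramp3 were called. Regeneration and denervation genes gave 2 of 17 higher and 2 lower, and 4 and 0 with median scaling, beside the 1943 and 296 of all genes. Chrng, the fetal subunit of the acetylcholine receptor, read 6.48, 6.34, 6.68 and 7.17 in saline and 8.15, 7.13, 7.36 and 7.68 under ASO 190401, with replicate 2 of the oligo group below saline replicate 4. It was higher by 0.91 ± 0.26 (adjusted p = 0.0225; 1.28 ± 0.28 with the term). Gadd45a, a stress gene that denervated muscle expresses, read 9.75, 9.86, 9.83 and 10.45 in saline and 11.55, 10.93, 10.58 and 11.03 under ASO 190401, with no overlap. It was higher by 1.05 ± 0.20 (adjusted p = 0.00174; 1.04 ± 0.25 with the term) and stood 1.16 ± 0.20 above WT, from which HSALR saline did not differ past the threshold. The adhesion molecule gene Ncam1 (-0.52 ± 0.17, its dimmer probe at 0.20 without a call) and the receptor subunit gene Chrnb1 (-0.39 ± 0.11) were lower, and both calls were lost with the term. Against WT 10 of the 17 were higher, where 5.09% of all genes were, and the list median was 0.57. HSALR saline, on the other slide, already stood above WT at a list median of 0.73. The list median of ASO 190401 minus saline was -0.16. Atp1b1 lost its call on removal of any of 3 single arrays (adjusted p up to 0.123), Chrng of any of 4 (up to 0.0851), Ncam1 of any of 6 (up to 0.154) and Chrnb1 of any of 3 (up to 0.0642).

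Of 14 heat shock genes 4 were lower and 2 higher, where 7.69% and 8.08% of all genes were. With median scaling 2 were lower and 4 higher, where 296 and 1943 of all 8725 genes were. Hspb7, a small heat shock protein of muscle, read 12.71, 12.56, 12.61 and 12.34 in saline and 10.64, 11.04, 10.38 and 11.16 under ASO 190401. The groups were far apart, with a difference of -1.75 ± 0.18 (adjusted p = 4.65e-06; -1.92 ± 0.21 with the term), and the treated level did not differ past the threshold from WT (0.21 ± 0.18, adjusted p = 0.519). Other small heat shock genes were lower, Hspb1 at -0.62 ± 0.13, Hspb3 at -0.35 ± 0.081 and Hspb8 at -0.33 ± 0.072, of which Hspb1 and Hspb3 passed with the term. The chaperone genes Hsph1 (0.37 ± 0.097) and Hsp90aa1 were higher, the latter above background on 0 of 4 saline arrays and at least 1.21-fold higher (adjusted p = 0.0121), and Hsp90aa1 was lost with the term. Ankrd2, a stretch-responsive protein gene of slow muscle, fell by 1.41 ± 0.31 (-1.38 ± 0.37 with the term). Of 13 immediate early genes 2 were lower, Atf3 at -1.01 ± 0.29 and Jun at -0.63 ± 0.14. With the term 5 were lower, where 4.77% of all genes were, Fos (-2.49 ± 0.44), Egr1 (-1.42 ± 0.40) and Junb (-1.12 ± 0.26) with them. Fos, Egr1 and Junb were not called without the term, where the lowest difference of the list was -1.41. Atf3, a stress-induced transcription factor, remained above WT by 1.65 ± 0.29 (adjusted p = 0.001). With median scaling 0 of the 13 were called. When that scaling was combined with the term 4 were lower, where 215 of all 8725 genes were. The call of Hsph1 was lost without ASO 190401 replicate 2 (adjusted p = 0.0565). Atf3 lost its call on removal of any of 4 single arrays (adjusted p up to 0.0851).

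Fast fibre sarcomere genes were 6.67% higher and 6.67% lower, and slow fibre ones 0% and 8.33%. The shares of all genes were 8.08% higher and 7.69% lower. Of 15 fast fibre genes Myh1, the type IIX myosin, fell by 0.74 ± 0.11 (-0.76 ± 0.13 with the term) with its other probe at -1.04, while Myh4, the type IIB myosin, was higher by 0.30 ± 0.074 (0.41 ± 0.08 with the term). Of 12 slow fibre genes 1 was lower, Ankrd2 as given above, and the list ran widely between arrays, its mean log2 level spanning 8.42 to 10.62 in saline and 8.59 to 10.85 under ASO 190401. Glycolysis and glycogen genes gave 5 of 19 higher and 4 lower, 1 and 1 with the term, and 8 and 1 with median scaling. The shares of all genes with the term were 4.29% and 4.77%, and by median scaling 1943 of the 8725 were higher and 296 lower. Fbp2, the muscle fructose bisphosphatase, read 10.98, 11.76, 11.76 and 11.52 in saline and 9.93, 10.07, 9.68 and 10.51 under ASO 190401, with saline replicate 1 the lowest of its group. It fell by 1.46 ± 0.17 (adjusted p = 1.39e-05; -1.37 ± 0.20 with the term). Phkg1, a subunit of phosphorylase kinase, was higher by 0.43 ± 0.086 (0.50 ± 0.10 with the term).

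The lists here stand beside 8.08% of all genes higher and 7.69% lower, and 4.29% higher with the term. Fatty acid use genes gave 4 of 19 higher and 0 lower, and 5 with the term. They held the transporter gene Slc27a1 at 0.65 ± 0.19, Cpt1b, which admits fatty acids to mitochondria, at 0.30 ± 0.099 (its dimmer probe at 0.044 without a call), and the oxidation enzyme genes Echs1 at 0.28 ± 0.073 and Eci1 at 0.26 ± 0.088, of which Echs1 was lost with the term. The list count ran from 1 to 5 when single arrays were left out. It was 9 with median scaling, where 1943 of all 8725 genes were higher. Of 26 genes of oxidative phosphorylation and the TCA cycle 3 were higher, with Idh3a, a subunit of isocitrate dehydrogenase, at 0.40 ± 0.065 (0.49 ± 0.072 with the term) and the others, Mdh2 (0.26 ± 0.083) and Uqcrc2 (0.19 ± 0.062), lost with it. Proteasome genes gave 4 of 24 higher and 1 lower, and 9 higher with median scaling. Psmc6 at 0.66 ± 0.16 and Psmb7 at 0.40 ± 0.10 were called with the term too, but the other probes of Psmb7 stood at -0.048 and 0.0075. The call of Psmb7 was lost without saline replicate 3 or ASO 190401 replicate 4 (adjusted p = 0.0508 and 0.052). Slc27a1 lost its call on removal of any of 5 single arrays (adjusted p up to 0.0842), Cpt1b of any of 7 (up to 0.138), Eci1 of any of 7 (up to 0.167), Mdh2 of any of 5 (up to 0.117) and Uqcrc2 of any of 7 (up to 0.12).

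In growth hormone and IGF signalling 4 of 18 were higher and 2 lower, where 8.08% and 7.69% of all genes were. Igfbp5, an IGF-binding protein of muscle, read 12.16, 12.38, 11.99 and 12.38 in saline and 13.26, 13.31, 13.71 and 12.80 under ASO 190401. It rose by 1.04 ± 0.17 (adjusted p = 0.00048; 1.28 ± 0.19 with the term), with replicate 4 the lowest of the treated arrays and still above saline. The growth hormone receptor gene Ghr was higher by 0.55 ± 0.095 (0.43 ± 0.11 with the term, and 0.32 without a call for its dimmer probe) and the feedback inhibitor gene Socs2 by 0.96 ± 0.23, lost with it (adjusted p = 0.138), while Socs3, an inhibitor of cytokine signalling, fell by 0.95 ± 0.16 (-0.83 ± 0.19 with the term). Among 16 genes of atrophy and autophagy 4 were higher and 1 lower. Foxo1, a transcription factor that drives protein breakdown, read 7.66, 7.81, 7.79 and 8.11 in saline and 8.52, 8.66, 8.29 and 8.71 under ASO 190401, with no overlap. It was higher by 0.71 ± 0.20 (adjusted p = 0.0243), by 1.14 ± 0.18 with the term and by 1.30 ± 0.20 against WT. Fbxo30, a ubiquitin ligase subunit of muscle wasting, was higher by 0.63 ± 0.096 (0.58 ± 0.12 with the term), and the translation inhibitor gene Eif4ebp1 fell by 0.54 ± 0.17, a call lost with it. Of 15 p53 targets Phlda3 (-0.94 ± 0.14) and Bbc3 (-1.24 ± 0.16), which encodes the cell death protein PUMA, were lower and 2 were higher, Gadd45a among them. By median scaling 7 of these targets were higher and 2 lower, where 1943 and 296 of all 8725 genes were. The dimmer probe of Bbc3 differed by -0.20 without a call. Foxo1 lost its call on removal of any of 5 single arrays (adjusted p up to 0.0708) and Eif4ebp1 of any of 5 (up to 0.109).

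For the Xist class itself 237 genes (2.72%) were called over the 16 arrays. Mup2, a major urinary protein gene mainly of liver, read 8.69, 5.09, 4.65 and 4.83 in saline and 10.81, 10.89, 8.98 and 9.58 under ASO 190401. Saline replicate 1, the Xist-positive array, lay just below the lowest treated array and was the only saline array above background. The difference of 4.25 ± 1.05 (adjusted p = 0.00985) became 1.61 ± 0.72 with the term (adjusted p = 0.173), and the class difference was 3.52 ± 0.55 (adjusted p = 0.00129). Mettl21c, a lysine methyltransferase of muscle, read 11.03, 12.08, 11.97 and 11.74 in saline and 9.64, 9.92, 9.95 and 9.21 under ASO 190401. Its difference of -2.03 ± 0.43 (adjusted p = 0.00351) became -0.96 ± 0.30 (adjusted p = 0.0538), with a class difference of -1.43 ± 0.23. Insyn2b and Foxo1 were also called for the class, at 0.79 ± 0.19 and -0.58 ± 0.14. Further genes picked after their values were seen show the range. The difference of Gstm2, a glutathione transferase gene, went from 1.2 ± 0.24 to 0.50 ± 0.11 with the term and stayed called. That of Mup6, another major urinary protein gene, went from 2.63 ± 0.86 to 0.57 ± 0.65 and was no longer called. Cish, a feedback inhibitor of cytokine signalling, went from 1.39 ± 0.73 without a call to 3.22 ± 0.51 with one. Mup6 lost its call on removal of any of 6 single arrays (adjusted p up to 0.133).

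**Figure D5:**
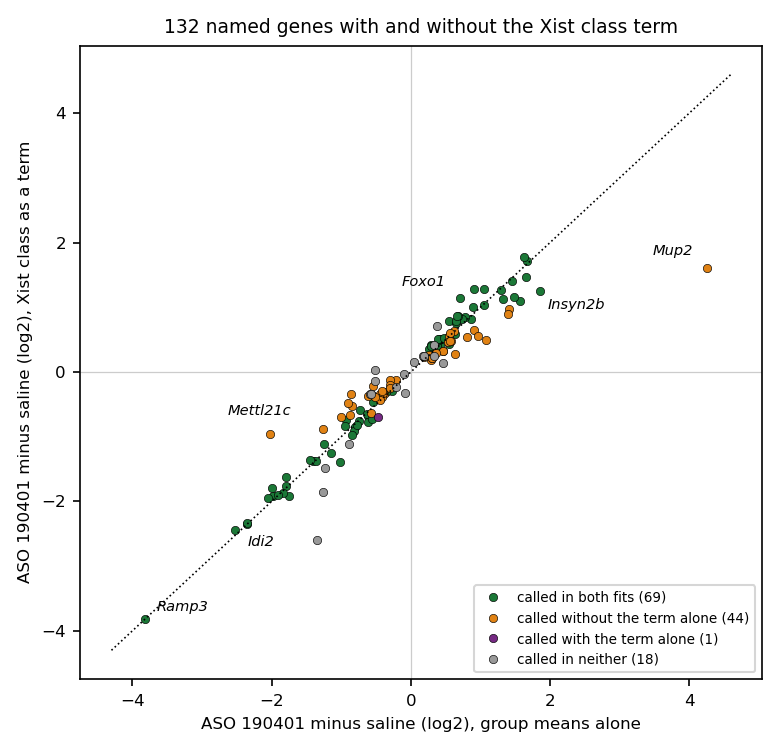
ASO 190401 minus saline as a log2 difference for the 132 named genes, from the 4 group means alone (horizontal axis) and with the Xist class as a term (vertical axis); the dotted line marks equal values. Of the 113 genes called without the term, 69 are called in both fits and 44 are not called with it; Ramp3 and Idi2 lie on the line, and Mup2 and Mettl21c lie far from it.

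The counts for the remaining markers of other cell types stand beside 8.08% of all genes higher and 7.69% lower. With the term these shares were 4.29% and 4.77%. Endothelial genes, with 0 of 12 called by limma as given beside the collagens, had a median of -0.14 and 1 higher with the term. Smooth muscle and pericyte genes had 1 of 11 lower, the intermediate filament gene Des at -0.21 ± 0.066, a call lost with the term (adjusted p = 0.321). Adipocyte genes had 0 of 8 called at a median of -0.17, and 1 lower at -0.64 with the term, and satellite cell genes 0 of 6. Erythroid genes had a median of -1.09, and -1.98 with the term, with 0 of 4 called in either fit. When the term was combined with median scaling 3 of the 4 were lower, where 215 of all 8725 genes were. Hba-a1, an alpha globin gene, read 13.36, 14.42, 13.71 and 14.92 in saline and 12.90, 12.69, 12.49 and 13.27 under ASO 190401, with no overlap, but the spread over the 16 arrays was wide (-1.26 ± 0.54, adjusted p = 0.125). Of 18 ribosomal protein genes 1 was lower, Rplp0 at -0.41 ± 0.12, not called with the term. Of 14 lymphocyte markers 0 passed the detection filter. Des lost its call on removal of any of 5 single arrays (adjusted p up to 0.119) and Rplp0 of any of 4 (up to 0.0849).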

How the data were processed

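Quadriceps RNA of 16 mouse muscle samples, 4 per group, was read on Illumina bead arrays. The table used holds one probe intensity and one detection p-value per probe and array, deposited before normalisation and named so per the file headers; the authors' background treatment is not stated there. The submitters' processing notes name affy. Of the deposited intensity cells 60 were not numbers (14 on WT replicate 1 and 46 on ASO 190401 replicate 4), and the 18 tested genes they touch were fitted without them. A processed matrix of the same arrays, also deposited by the authors as linear intensity, was used as an alternative.

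From the intensities, normexp background correction with the detection p-values (offset 16), quantile normalisation and log2 were applied with limma 3.58.1 in R 4.3.3. Probes detected (p under 0.05) by 4 or more of the 16 arrays were kept, and gene names came from the platform annotation. The group means of all 16 arrays were fitted with lmFit and eBayes with an intensity trend, and p-values were adjusted by Benjamini-Hochberg over all 8725 genes. This script was tested on simulated data with independent noise and no slide effect, which cannot bear on the coincidence of slide and treatment.

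The members and gene lists were chosen with earlier results of these data known. Named genes were the 12 largest rises and 12 largest falls among called genes with no overlap between arrays, from each list as many as 4 called members (where none was called, the 2 of smallest p), called members against their list's majority, and Acta1, Clcn1, Mbnl1, Mbnl2 and Rnaseh1. All settings with the Xist class were added after seeing the data. A probe below background on every array of a group was given only a lower bound of its fold. Promoters are RefSeq's (GRCm38.p6).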

Additional observations from a re-analysis of the deposited data

Results flagged for a closer look

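Of 264 tests (132 named genes in each of the 2 groups), 12 gave a group in which 1 array stood apart from the other 3, where chance gives about 1 in 20 groups. Saline replicate 1, the Xist-positive saline array, was the one apart in 4 of them. Mup2 read 8.69 there and at most 5.09 on the other saline arrays, and Rasgrf1 5.55 against at most 5.07. Eif4ebp1 read 9.98 there against at least 10.72, and Ltbp1 5.91 against at least 6.94. In the other saline arrays Ldb3 was highest in replicate 2 (11.71, next 11.56), Exosc4 was highest in replicate 3 (8.78, next 8.66), Ogn was lowest in replicate 3 (9.24, next 9.87) and Gadd45a was highest in replicate 4 (10.45, next 9.86). Under ASO 190401 Celf2 was lowest in replicate 1 (11.19, next 11.30) and Rbfox1 highest in replicate 3 (13.58, next 13.31). In replicate 4 Plod2 was highest (6.38, next 5.89) and Tie1 lowest (5.07, next 5.61).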

How the results depend on the processing

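Over the 19 alternatives chosen at the outset, 67 of the 113 called named genes kept their call in every one, and 53 of these also with the Xist class as a term. Scaling to one median gave 1943 genes higher and 296 lower, and 2556 and 401 probes. The Xist class as a term gave 374 and 416 genes and 482 and 508 probes, and with median scaling as well 825 and 215 genes and 1064 and 276 probes. The Xist-positive arrays alone, with a lone saline array assumed to vary like the other groups, gave 55 and 90 genes and 56 and 105 probes. The class term without saline replicate 1 gave 147 and 210 genes and 197 and 258 probes. In that setting 41 of the 113 called named genes kept their call. Clcn1, Col3a1 and Ifit3, called with the term on all arrays, did not (adjusted p = 0.116, 0.0621 and 0.069). Leaving out 1 array at a time gave 469 to 634 genes higher and 497 to 691 lower, and 578 to 830 and 612 to 858 probes. The cause was not tested for any of these moves. Signs turned for Tapbp (-0.052 by the mean of its probes), Rnaseh1 (-0.00019 to 0.102 on leaving out 1 array, negative without saline replicate 2, and -0.035 on Xist-positive arrays alone), Egr2 (-0.20 to 0.083, positive without ASO 190401 replicate 2), Mbp (0.028 with the class term, 0.19 with median scaling as well, 0.44 with the term without saline replicate 1), Acta2 (0.012 with both, 0.18 with the term without that array), H2-T23 (-0.058 likewise) and Eif4ebp1 (0.066 on Xist-positive arrays alone); only Eif4ebp1 had been called. No paired analysis was possible because the labels give positions on a slide and no replicate numbers shared between groups. Slide, treatment and most of the Xist class coincide here, and probes near background, such as Ramp3 under ASO 190401, understate a fall.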

Other observations

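Rasgrf1, an exchange factor of Ras, read 5.55, 5.0, 5.07 and 4.97 in saline, with 1 array above background, and 6.80, 6.34, 6.37 and 6.67 under ASO 190401. It was higher by 1.39 ± 0.29 (adjusted p = 0.00284 by limma), and 0.89 ± 0.29 with the Xist class term (adjusted p = 0.063). Among 4 thrombin and protease-activated receptor genes F2r was lower (-0.54 ± 0.11) while F2rl3 was higher. For this and the next lists, all genes gave 8.08% higher and 7.69% lower, and 4.29% and 4.77% with the term. Of 14 circadian clock genes the repressor gene Nr1d1 was lower (-1.01 ± 0.26), a call lost with the term, and the activator gene Tef higher (0.47 ± 0.10, its other probe at -0.011). The clock shares, 7.14% higher and 7.14% lower, were near those of all genes. In innate sensing Tnfaip3, an inhibitor of NF-kappaB signalling, was lower (-0.85 ± 0.24; -0.98 ± 0.29 with the term), with 1 treated array above background. Gpnmb, a lysosomal membrane protein gene of macrophages, was higher (0.73 ± 0.16; 0.82 ± 0.20 with the term), as was Herpud1, of endoplasmic reticulum protein degradation (0.38 ± 0.075; 0.38 ± 0.093). Ddit4l, an inhibitor of mTOR signalling, was higher by 0.55 ± 0.14 (0.79 ± 0.14 with the term). Of 4 liver secreted protein genes Mup2 and Apoc1 (1.09 ± 0.34) were higher, and neither was with the term. The dimmer probe of Apoc1 differed by -0.0067 without a call. In glycogen metabolism Gys1, glycogen synthase, was lower (-0.56 ± 0.17) and Ppp1r3c, which targets a phosphatase to glycogen, higher (0.81 ± 0.19), both lost with the term. The call of Nr1d1 was lost without ASO 190401 replicate 4 (adjusted p = 0.052). Tnfaip3 lost its call on removal of any of 4 single arrays (adjusted p up to 0.0805), Apoc1 of any of 5 (up to 0.136) and Gys1 of any of 4 (up to 0.103).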
